A study of Mus musculus with 11 samples.

Results

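The angiopoietin, Tie and apelin genes were followed in embryonic mouse hearts that lack the phosphodiesterase Pde2A, an enzyme that breaks down cyclic AMP and cyclic GMP. The set was chosen by name, with earlier results of these data known. It holds 8 of the 55487 gene identifiers in the counts: the angiopoietin ligands *Angpt1* and *Angpt2*, the receptors *Tek* and *Tie1*, the ligand *Apln* with its receptor *Aplnr*, and the secreted proteins *Angptl4* and *Esm1*. Whole hearts of 5 Pde2A-/- embryos (KO) and 6 Pde2A+/+ embryos (WT) were taken at E14.5, and the RNA of each heart made up 1 library. The embryos came from timed matings between Pde2A+/- mice of the B6; 129P2-Pde2A<tm1Dgen>/H line. Both genotypes thus come from that mixed line and from heterozygous mothers. Which strain alleles a heart carries near the targeted gene is not stated, so their part cannot be told apart from the loss of Pde2A. That loss is in every cell, and no treatment is given for these hearts. Live embryos of both sexes were used, and neither litter, sequencing batch nor the sex of a heart is stated in the sources used here. The comparison of the genotypes asks how the transcriptome of the developing heart differs when Pde2A is absent.

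Angiopoietin-1, made mainly by cells around the endothelium and by heart muscle, activates the endothelial receptor tyrosine kinase *Tek* and steadies vessels, whereas angiopoietin-2 is released by endothelial cells and can block or activate *Tek* depending on the setting. *Tie1* binds no angiopoietin strongly on its own and modulates *Tek* at the cell surface. Apelin is a small secreted peptide of sprouting endothelial cells, and its G protein-coupled receptor *Aplnr* is needed for heart formation and for the growth of coronary vessels. *Angptl4* blocks lipoprotein lipase, and *Esm1*, also called endocan, is a proteoglycan secreted by endothelial tip cells, the leading cells of a vessel sprout.

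The reads counted on genes in the sense orientation numbered 35865537 to 42835382 per heart, and 19.6 to 22.4% of the reads lay on no single gene. *Pde2a* itself had between 0 and 2 counts in each library, 7 in all, which left no check of the genotypes from the targeted gene. The annotation places *Gm45837* on the same strand over 64.3% of the 6149 exon bases of *Pde2a*. A read that lies on both genes is counted on neither, so these counts do not give the level of *Pde2a*. Why the bases outside the overlap also drew so few counts was not tested. Levels are given as CPM, the counts of a gene scaled to a common library size after normalization. All 11 cardiomyocyte markers were above 1 CPM in WT hearts, and their summed level was 36060 to 43870 CPM in KO hearts and 35360 to 47060 CPM in WT hearts, so the libraries hold heart muscle as labelled. A gene was called different between the genotypes at an adjusted p under 0.05 in the quasi-likelihood test of edgeR, adjusted after Benjamini and Hochberg over all 24177 genes tested, and all 8 genes of the set were among those tested.

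The sequences of *Apln* and *Esm1* are shown because these were among the genes whose levels spread widest over the KO hearts. The first is the coding sequence of *Apln* in GENCODE M21 (GRCm38, chrX:48028299-48034505, minus strand, 234 bases over 2 exons, 77 codons before the stop). The capitals mark its last 13 codons, which encode apelin-13, the short active form of the peptide.
*Apln* coding sequence: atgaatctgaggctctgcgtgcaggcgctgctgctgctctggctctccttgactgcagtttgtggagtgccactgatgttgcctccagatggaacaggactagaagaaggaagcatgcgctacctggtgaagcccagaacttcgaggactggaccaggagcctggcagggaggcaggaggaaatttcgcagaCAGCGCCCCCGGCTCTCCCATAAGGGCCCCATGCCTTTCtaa
The other sequences are the 250 bases before the RefSeq start of *Apln* (GRCm38.p6, chrX:48034854-48035103, minus strand) and of *Esm1* (chr13:113209409-113209658, plus strand). In the first, the capitals mark a match to an ETS core, a motif common at endothelial genes, and in the second a match to the core of a hypoxia response element.
*Apln* promoter: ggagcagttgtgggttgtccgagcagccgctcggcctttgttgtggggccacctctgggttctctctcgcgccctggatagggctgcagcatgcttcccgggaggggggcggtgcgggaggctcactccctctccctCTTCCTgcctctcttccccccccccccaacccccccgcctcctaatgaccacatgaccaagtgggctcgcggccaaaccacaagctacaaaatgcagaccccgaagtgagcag
*Esm1* promoter: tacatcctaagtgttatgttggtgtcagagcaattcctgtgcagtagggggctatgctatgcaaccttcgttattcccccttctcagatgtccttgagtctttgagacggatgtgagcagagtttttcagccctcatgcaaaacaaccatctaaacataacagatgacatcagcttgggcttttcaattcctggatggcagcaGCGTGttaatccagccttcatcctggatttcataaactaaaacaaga
The motifs searched on both strands were the hypoxia response element core (ACGTG or GCGTG), the full cAMP response element (TGACGTCA), its short form (TGACG), a FOXO site (GTAAACA) and the ETS core with flanks (AGGAAG or CGGAAG). The full cAMP element contains the short form, and the short form can overlap the hypoxia core. The *Esm1* window held 1 hypoxia core, 47 bases before the start, and the *Apln* window 1 ETS core on the reverse strand, 113 bases before the start. Among 32851 mouse promoters of this length, 38.6% held the hypoxia core, 39.2% the ETS core, 17.8% the short cAMP element, 3.17% the FOXO site and 1.55% the full cAMP element, so both matches are common ones. The windows of *Tek* and *Tie1* held no hypoxia, cAMP or FOXO match, and *Tie1* held 2 ETS matches. The RefSeq start of *Tie1* differs from its GENCODE start by -212 bases in genome coordinates and lies inside the gene. Most of the *Tie1* window is therefore within the annotated gene, and its ETS matches lie just before the GENCODE start. RefSeq promoters of 4 of the 8 genes were at hand.

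Of the 8 genes, *Aplnr* alone passed the test in edgeR, and it fell. The number called lower was therefore 1 of 8, where 5.67% of all genes tested were called lower. None of the 8 was called higher by edgeR, where 8.93% of all genes tested were. At an unadjusted p under 0.05, 3 were higher (*Tek*, *Tie1* and *Esm1*), as were 15.6% of all genes tested. DESeq2 called 2 of these higher, *Tie1* and *Esm1*, beside 16.4% of the 17013 genes to which it gave an adjusted p. In the plot of levels by heart the genotypes are fully apart only for *Aplnr*: 1 of 8 genes had every KO heart below every WT heart, beside 3.11% of all genes tested, and 0 of 8 had every KO heart above every WT heart, beside 5.38%. In whole hearts, fewer cells that express a gene and less RNA of it per cell cannot be told apart, for *Aplnr* as for every other gene.

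**Figure D1:**
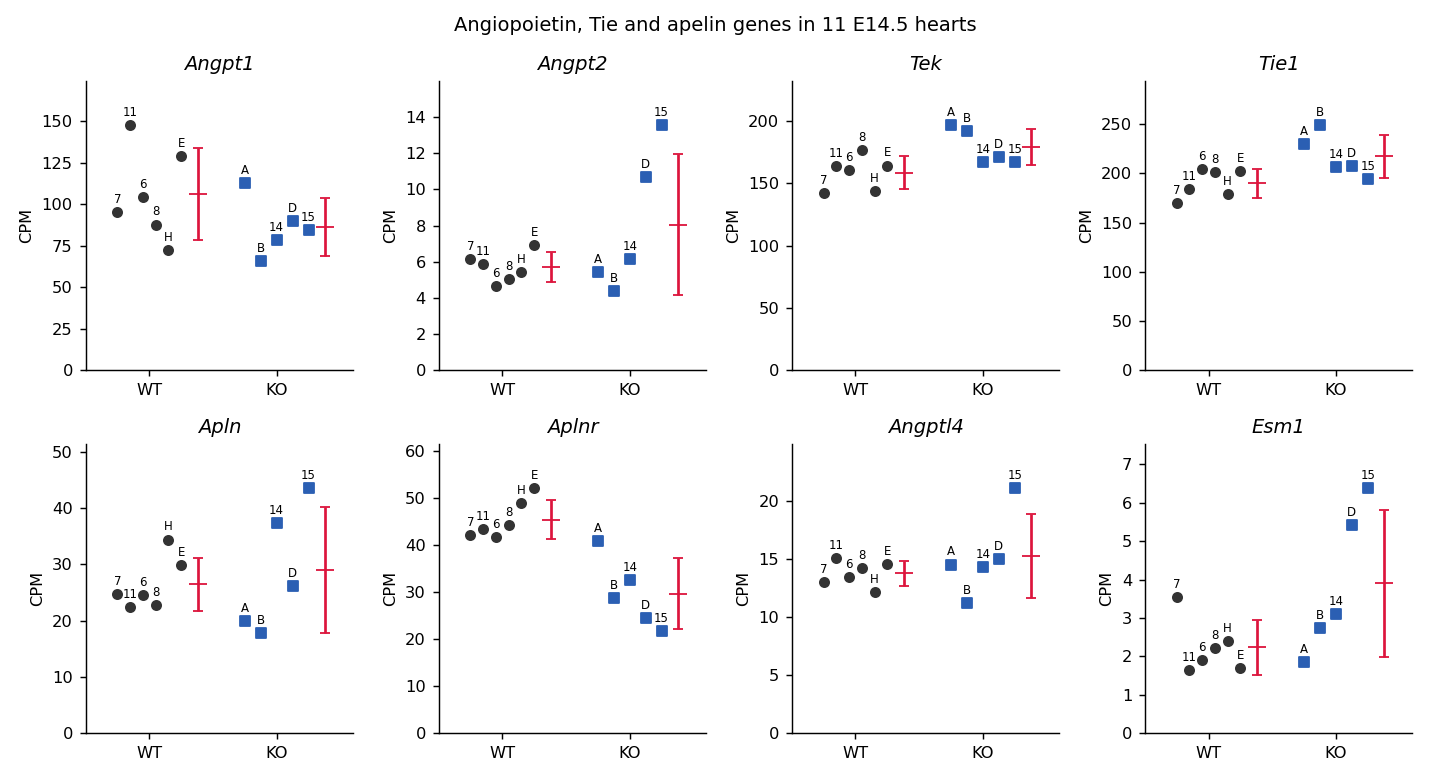
Levels of the 8 genes in CPM (vertical axes, each starting at 0) in 6 WT hearts (circles) and 5 KO hearts (squares), labelled by replicate name, with the mean and SD of each group in red. The KO hearts lie below all WT hearts for *Aplnr*, whereas for *Angpt2*, *Apln* and *Esm1* KO hearts lie on both sides of the WT hearts or reach far above them.

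*Angpt1* (ENSMUSG00000022309, chr15:42424723-42676977, minus strand), the activating ligand, was read at 112.8, 65.5, 78.3, 90.0 and 84.5 CPM in KO hearts A, B, 14, D and 15. In WT hearts it ranged from 72.6 to 147.5 CPM around a median of 99.7. The groups overlapped, with 4 of 5 KO hearts below the WT median and WT heart 11 the highest of all. The log2 fold change of KO over WT was -0.30 (SE 0.17, 95% interval -0.67 to 0.075), which did not pass the test (adjusted p = 0.268, edgeR). Leaving out a heart moved it between -0.41 without KO heart A and -0.18 without WT heart 11. The annotation places *Gm17473* on the opposite strand over 737 exon bases of *Angpt1*, and this gene had 49 to 72 counts per heart against 2775 to 5427 for *Angpt1*.

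*Angpt2* (ENSMUSG00000031465, chr8:18690263-18741562, minus strand), the context-dependent ligand, had 5.45, 4.39, 6.12, 10.7 and 13.6 CPM in KO hearts A, B, 14, D and 15. The WT hearts lay between 4.66 and 6.94 CPM, with a median of 5.67. KO hearts D and 15 were above every WT heart, KO heart B was below every one, and the other KO hearts lay within the WT range. The log2 fold change was 0.49 (SE 0.25, 95% interval -0.047 to 1.04) and did not pass the test (adjusted p = 0.203, edgeR). Without KO heart 15 it was 0.23 (adjusted p = 0.563). *Angpt2* lies within *Mcph1*, a gene on the other strand, and shares no exon base with it.

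The ratio of the 2 ligands within a heart does not depend on library size. On the log2 scale *Angpt2* to *Angpt1* was -4.36, -3.88, -3.67, -3.07 and -2.64 in KO hearts A, B, 14, D and 15, and between -4.63 and -3.73 in WT hearts. In 3 of 5 KO hearts the ratio was above all WT hearts. The mean difference of KO minus WT was 0.66 (exact permutation test over the 462 splits of the hearts, two-sided, p = 0.0649). Adjusted over the 4 ratios tested, p was 0.0865, so the shift did not pass. Leaving out a heart moved it between 0.43 without KO heart 15 (exact permutation p = 0.152) and 0.86 without KO heart A (exact permutation p = 0.00952). Apart from the latter, p fell under 0.05 without WT heart H alone (0.75, exact permutation p = 0.0476).

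The receptors were the most abundant genes of the set. *Tek* (ENSMUSG00000006386, chr4:94739289-94874976, plus strand) ranged from 166.8 to 196.7 CPM in KO hearts and from 142.3 to 176.8 in WT hearts. *Tie1* (ENSMUSG00000033191, chr4:118471191-118490061, minus strand) ranged from 194.3 to 249.0 CPM in KO hearts and from 169.5 to 204.3 in WT hearts. For each receptor all 5 KO hearts were above the WT median, and 2 and 4 of them, respectively, were above every WT heart. The log2 fold changes were 0.17 for *Tek* (SE 0.067, 95% interval 0.028 to 0.32, adjusted p = 0.0989) and 0.19 for *Tie1* (SE 0.071, 95% interval 0.042 to 0.35, adjusted p = 0.0808), both from edgeR and neither past the threshold. With DESeq2 *Tie1* passed, at an adjusted p of 0.0418.

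The ratio of *Tie1* to *Tek* differed by less than the spread between hearts. The log2 ratio of *Tie1* to *Tek* was 0.28 ± 0.063 (SD, n = 5) in KO hearts and 0.26 ± 0.072 (SD, n = 6) in WT hearts, a difference of 0.019 (exact permutation test, two-sided, p = 0.649, 0.649 after adjustment). The log2 ratio of *Angpt1* to *Tek* was -1.07 ± 0.29 (SD, n = 5) in KO hearts and -0.62 ± 0.34 (SD, n = 6) in WT hearts. That difference of -0.45 had an exact permutation p of 0.0455, two-sided, and 0.0865 after adjustment over the 4 ratios, and the unadjusted p rose above 0.05 in 8 of the 11 repeats with a heart left out. Only KO hearts B and 14 were below every WT heart.

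**Figure D2:**
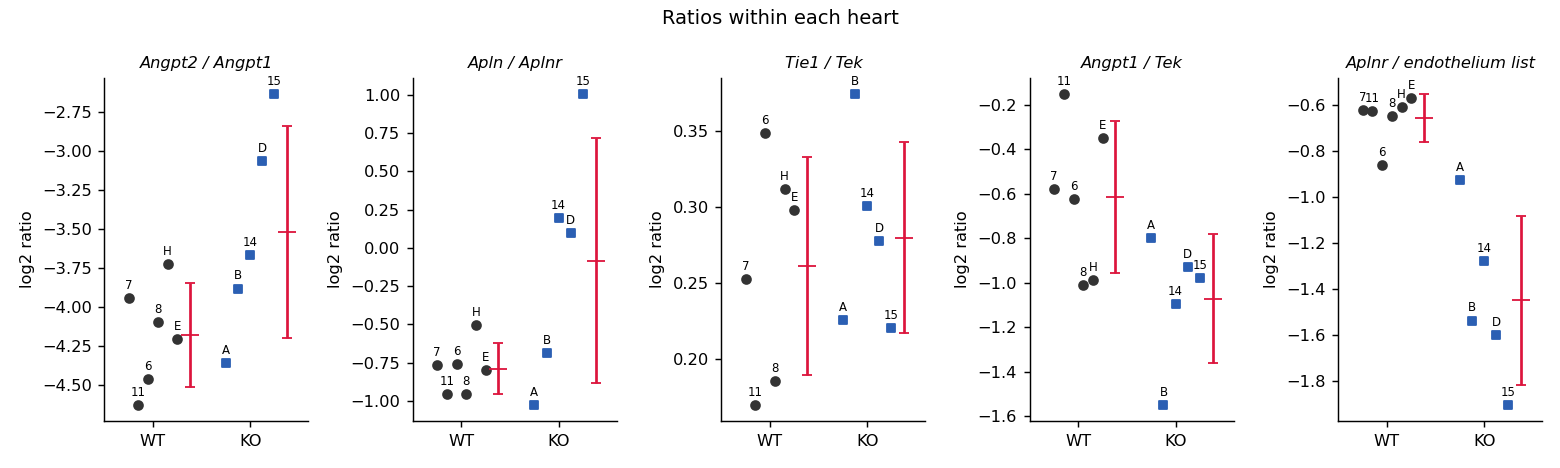
Log2 ratios within each heart (vertical axes, not starting at 0) for 4 pairs of genes and for *Aplnr* against the mean of the endothelium list, with WT hearts as circles, KO hearts as squares, and the mean and SD of each group in red. *Aplnr* against the endothelium list is the panel in which all 5 KO hearts lie below all 6 WT hearts.

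*Apln* (ENSMUSG00000037010, chrX:48025146-48034853, minus strand), the ligand whose coding sequence is shown above, did not move in 1 direction. It was read at 20.0, 17.8, 37.4, 26.1 and 43.6 CPM in KO hearts A, B, 14, D and 15, and at 22.4 to 34.4 CPM in WT hearts, with a median of 24.7. KO hearts A and B were below every WT heart, and KO hearts 14 and 15 above every one. The log2 fold change was 0.13 (SE 0.21, 95% interval -0.33 to 0.58, adjusted p = 0.738, edgeR), and -0.060 without KO heart 15. The SD of its log2 level was 0.56 over KO hearts and 0.25 over WT hearts, where the median SDs over all genes that averaged 1 CPM or more were 0.15 and 0.11.

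*Aplnr* (ENSMUSG00000044338, chr2:85136225-85139923, plus strand), the apelin receptor, was 1.53-fold lower in KO hearts. It was read at 40.9, 28.8, 32.6, 24.5 and 21.7 CPM in KO hearts A, B, 14, D and 15. The WT hearts lay between 41.7 and 52.2 CPM, with a median of 43.8. All KO hearts were below all WT hearts, although KO heart A came close to the lowest of them. The log2 fold change was -0.61 (SE 0.13, 95% interval -0.90 to -0.32), with an adjusted p of 0.0112 in edgeR. *Aplnr* passed in each of the 19 alternative fits, with log2 fold changes of -0.75 to -0.52 and adjusted p between 0.000233 and 0.0369.

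The gene consists of 1 exon block of 3699 bases, and 787 to 2174 reads per heart were counted on it. Reads on its opposite strand were 4 to 17 per heart. The genes whose profile over the 11 hearts was most like that of *Aplnr*, by the mean absolute difference of log2 CPM after subtracting the WT mean, were *Wdr5b* (0.125), *Gm44950* (0.127) and *Cspg5* (0.128).

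The log2 ratio of *Apln* to *Aplnr* was -1.03, -0.69, 0.20, 0.095 and 1.01 in KO hearts A, B, 14, D and 15, and lay between -0.96 and -0.51 in WT hearts. KO hearts 14, D and 15 were above every WT heart, KO heart A was below every one and KO heart B lay among them. The mean difference of 0.71 did not pass (exact permutation test, two-sided, p = 0.0584, 0.0865 after adjustment over the 4 ratios). Leaving out a heart moved it between 0.43 without KO heart 15 (exact permutation p = 0.133) and 0.94 without KO heart A (exact permutation p = 0.00952). Apart from the latter, p fell under 0.05 without KO heart B alone (0.86, exact permutation p = 0.0333).

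*Angptl4* (ENSMUSG00000002289, chr17:33773750-33781830, minus strand) ranged from 11.2 to 21.2 CPM in KO hearts and from 12.2 to 15.1 in WT hearts. KO heart 15 was above and KO heart B below every WT heart. Its log2 fold change was 0.15 (SE 0.13, 95% interval -0.13 to 0.42, adjusted p = 0.482, edgeR), and 0.0035 without KO heart 15.

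*Esm1* (ENSMUSG00000042379, chr13:113209659-113218098, plus strand) had the lowest level of the set and the largest estimated rise. It was read at 1.85, 2.74, 3.11, 5.41 and 6.39 CPM in KO hearts A, B, 14, D and 15, from 60 to 232 counts per heart over both genotypes. The WT hearts lay between 1.63 and 3.55 CPM, with a median of 2.06. Only KO hearts D and 15 were above every WT heart, since WT heart 7 was higher than the other KO hearts. The log2 fold change was 0.80 (SE 0.30, 95% interval 0.15 to 1.45), and the adjusted p of 0.0900 in edgeR missed the threshold. DESeq2 gave an adjusted p of 0.0329, and edgeR gave 0.0218 without KO heart A (log2 fold change 0.99) and 0.0492 without WT heart 7 (0.98). Without KO heart 15 the log2 fold change was 0.56 (adjusted p = 0.256, edgeR) and without KO heart D 0.66 (adjusted p = 0.219, edgeR).

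**Figure D3:**
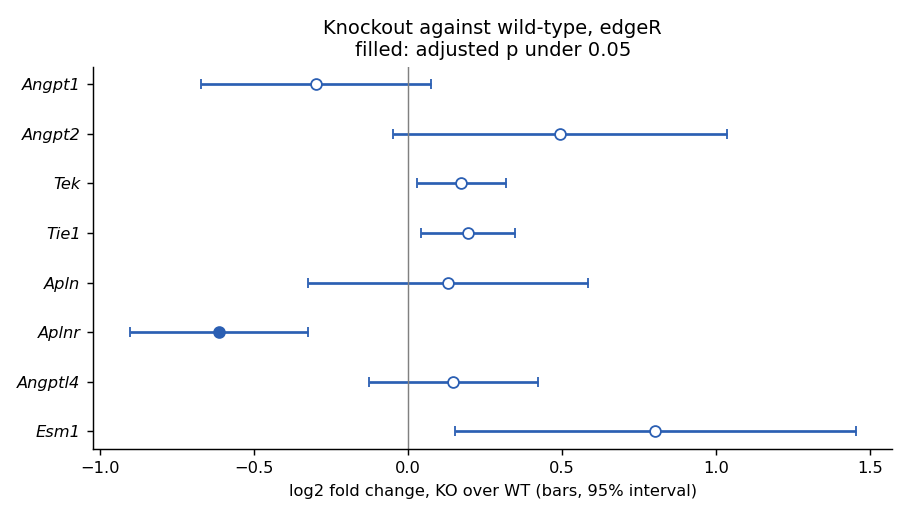
Log2 fold changes of KO over WT (horizontal axis) with their 95% intervals for the 8 genes, from edgeR. The interval of *Aplnr*, the filled point, runs from -0.90 to -0.32, those of *Tek*, *Tie1* and *Esm1* lie above 0 without passing the adjusted test, and the other intervals include 0.

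Divided by exon length, the levels can be set beside each other. In WT hearts the order was *Tie1* (38.6 CPM per kilobase), *Tek* (33.7), *Angpt1* (20.4), *Aplnr* (12.3), *Apln* (8.41), *Angptl4* (3.89), *Angpt2* (1.54) and *Esm1* (1.06). The ranges over hearts overlapped between *Tie1* and *Tek*, between *Angpt1* and *Aplnr* and between *Angpt2* and *Esm1*, and the other neighbours were apart. In KO hearts the order differed at 1 place: *Apln*, at 9.21 ± 3.55 CPM per kilobase (SD, n = 5), stood above *Aplnr*, at 8.03 ± 2.03, with the ligand above its receptor in 3 of 5 hearts. In WT hearts the receptor was above the ligand in all 6. Among the KO hearts only *Tek* and *Angpt1* had ranges that did not overlap.

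Several of these genes are expressed chiefly by endothelial cells, and endothelial markers also moved. Of the 16 genes of the endothelium list, 8 rose and 1 fell, where 8.93% and 5.67% of all genes tested did. The median log2 fold change of the list was 0.21, where the median over all genes tested was -0.023. *Clec14a* rose by 0.53, *Emcn* by 0.50 and *Eng* by 0.48 on the log2 scale, whereas *Cldn5*, a tight junction protein, fell by 0.79. The summed level of the list was 1927 to 2109 CPM in KO hearts and 1514 to 1823 in WT hearts, without overlap. Its mean log2 level, the reference used next, was 6.22 to 6.39 in KO hearts and 6.02 to 6.27 in WT hearts, and on that measure KO heart D lay within the WT range.

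Each gene was therefore also taken relative to the mean log2 level of the endothelium list in the same heart, 8 comparisons whose p-values were not adjusted. On this scale *Aplnr* was at -0.92, -1.54, -1.28, -1.60 and -1.91 in KO hearts A, B, 14, D and 15, and between -0.86 and -0.57 in WT hearts. All KO hearts were again below all WT hearts, and the difference of -0.80 had an exact permutation p of 0.0022, two-sided, the smallest that these 462 splits can give. *Tek* and *Tie1* differed by 0.022 and 0.041 (exact permutation p = 0.794 and 0.552), *Angpt1* by -0.43 (exact permutation p = 0.0887) and *Esm1* by 0.55 (exact permutation p = 0.158). *Angpt2*, *Apln* and *Angptl4* differed by 0.22, -0.090 and -0.031 (exact permutation p = 0.465, 0.723 and 0.851). *Aplnr* was already apart before this scaling, and the reference was above its WT mean in every KO heart. The scaling thus widened a gap that was there and is no separate support for the fall. The small positive differences of *Tek* and *Tie1* were near 0 with the scaling. They were below 0, at -0.17 and -0.15, relative to the median of the list.

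For the vessel lists that follow, 8.93% of all genes tested rose and 5.67% fell. In the endocardium list 2 of 4 rose, *Tmem100* by 0.86 and *Nfatc1*, a transcription factor of the endocardium, by 0.34. The median was 0.33, and the mean log2 level of the list was higher in all KO hearts than in any WT heart. In the coronary capillary list 0 of 4 were called by edgeR (median 0.11). At an unadjusted p under 0.05 in edgeR 1 of the 4 was higher, beside 15.6% of all genes tested. DESeq2 called 1 of the 4 higher, beside 16.4% of the genes to which it gave an adjusted p. Of 4 lymphatic genes tested, *Lyve1*, which macrophages express too, rose by 0.98 and the median was 0.24. Among 10 genes of pericytes and smooth muscle, cells that make *Angpt1*, *Cnn1* fell by 0.38 and *Kcnj8* by 0.31, and the median was -0.10. DESeq2 called 3 of the 10 lower and 1 higher, where it called 2354 lower and 2791 higher of 17013 genes.

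Genes of the hypoxia response differed widely among the KO hearts. Of 14 hypoxia genes 13 rose, where 8.93% of all genes tested did. The median log2 fold change was 1.10. The rises included *Ndrg1* (2.31), the oxygen sensor *Egln3* (1.98) and the vascular growth factor *Vegfa* (1.39), which the study had picked from these data. The mean of this list, taken as log2 CPM minus the WT mean, was 0.12, 0.52, 1.12, 1.35 and 1.62 in KO hearts A, B, 14, D and 15, and between -0.13 and 0.15 in WT hearts. KO heart A thus lay within the WT range and KO heart 15 was the highest. On the same scale *Esm1* was at -0.21, 0.34, 0.52, 1.31 and 1.55 in these hearts, *Angpt2* at -0.049, -0.36, 0.12, 0.91 and 1.26, and *Apln* at -0.39, -0.55, 0.52, -0.0021 and 0.74. *Aplnr* was at -0.15, -0.65, -0.47, -0.89 and -1.06, so its lowest levels were in KO hearts D and 15 and its highest in KO heart A.

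*Tek* and *Tie1* ran in another order. On this scale *Tek* was at 0.31 in KO heart A and 0.28 in KO heart B but at most 0.12 in the others, and *Tie1* at 0.28 and 0.39 in KO hearts A and B but at most 0.13 in the others. With 5 KO hearts these are descriptions, and the part of the hypoxia genes in the levels of the set was not tested.

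**Figure D4:**
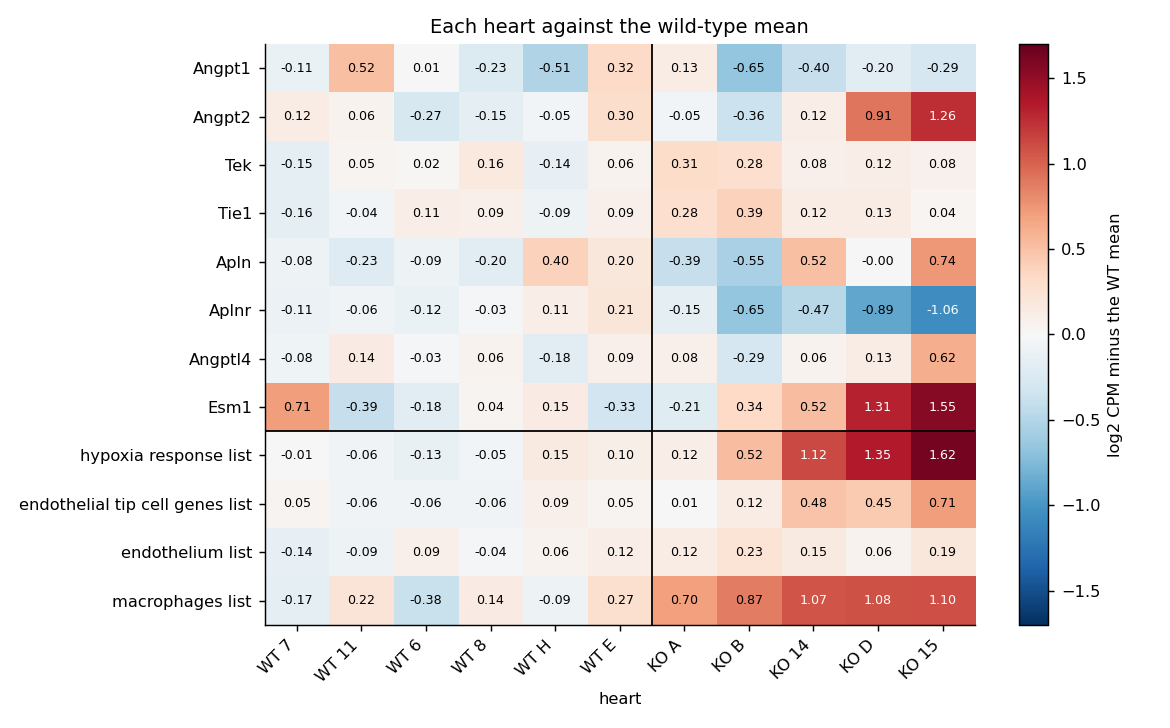
Log2 CPM minus the WT mean (colour and printed value) for the 8 genes and for the mean of 4 lists (rows) in each heart (columns, WT hearts left and KO hearts right of the line). KO hearts 14, D and 15 have the highest values of the hypoxia list, 1.12, 1.35 and 1.62, KO hearts D and 15 the highest of *Angpt2* and *Esm1* and the lowest of *Aplnr*, and KO hearts A and B the highest of *Tek* and *Tie1*.

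Of 16 other genes of the Tie pathway, 3 rose and 1 fell, where 8.93% and 5.67% of all genes tested did, and the median log2 fold change was 0.027. *Shc1*, an adaptor of receptor tyrosine kinases, rose by 0.33, *Tnip2* by 0.29 and *Foxo1*, the transcription factor that *Tek* signaling holds out of the nucleus, by 0.28. *Foxo1* was at 67.5 ± 4.78 CPM (SD, n = 5) in KO hearts and 55.5 ± 2.72 CPM (SD, n = 6) in WT hearts, and every KO heart was above every WT heart. *Akt1*, the kinase between *Tek* and *Foxo1*, fell by 0.28. *Angpt4*, a further ligand, was at 0.20 CPM in KO hearts and 0.22 in WT hearts. *Ptprb*, the phosphatase that acts on *Tek*, had a log2 fold change of 0.17 (adjusted p = 0.161, edgeR), and *Svep1*, a matrix protein that binds *Tie1*, of -0.040 (adjusted p = 0.890, edgeR).

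Of 18 other genes of the apelin pathway, 2 rose and 1 fell, where 8.93% and 5.67% of all genes tested did, with a median of 0.066. *Arrb1*, one of the arrestins that bind activated receptors, rose by 0.71, from 69.8 ± 4.19 CPM (SD, n = 6) in WT hearts to 113.9 ± 13.9 (SD, n = 5) in KO hearts, without overlap (adjusted p = 5.3e-05, edgeR). *Gna13*, a G protein subunit, rose by 0.43, and *Gnai1*, a subunit that inhibits adenylyl cyclase, fell by 0.21. *Apela*, the second ligand of *Aplnr*, had a log2 fold change of 0.36 that did not pass (SE 0.28, adjusted p = 0.419, edgeR).

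Among 11 relatives of *Angptl4* and lipases, *Angptl2* rose by 0.42 and *Lpl*, the lipase that *Angptl4* blocks, by 0.65, and the median was 0.26. For comparison with this list and the next, 8.93% of all genes tested rose and 5.67% fell. *Lpl* was at 454.7 ± 93.5 CPM (SD, n = 5) in KO hearts and 290.0 ± 27.7 CPM (SD, n = 6) in WT hearts, with the groups apart. *Gpihbp1*, which carries *Lpl* to the capillary wall, had a log2 fold change of 0.26 (adjusted p = 0.447, edgeR). Of 10 target genes of the PPAR factors, which also induce *Angptl4*, 2 rose, *Plin2* among them by 0.29, and *Acadm* fell by 0.27, with a median of 0.18.

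The tip cell genes, the class to which *Apln* and *Esm1* belong, split. Of 17, 6 rose and 1 fell, where 8.93% and 5.67% of all genes tested did, with a median of 0.12. The rises were led by *Kcne3* (1.62), *Adm* (1.59), the peptide adrenomedullin, and *Rgcc* (1.33), whereas *Cxcr4*, the chemokine receptor of sprouting vessels, fell by 0.66. *Adm* is also known to respond to hypoxia. The mean of the list minus the WT mean was 0.0081, 0.12, 0.48, 0.45 and 0.71 in KO hearts A, B, 14, D and 15 and between -0.062 and 0.086 in WT hearts, so KO heart A lay within the WT range here too.

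**Figure D5:**
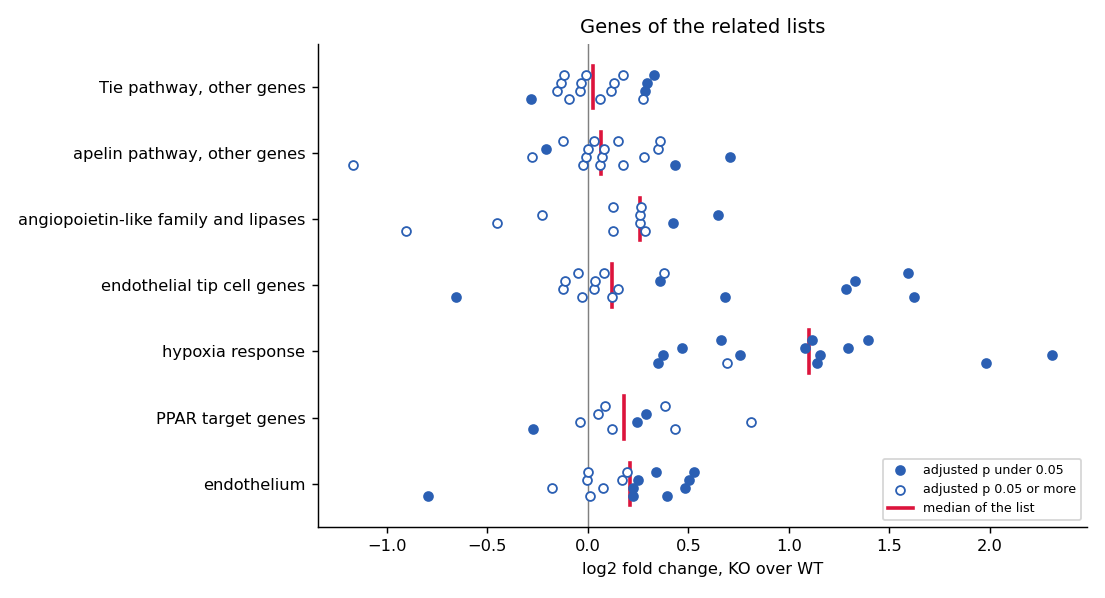
Log2 fold changes of KO over WT (horizontal axis) for the genes of 7 lists, 1 point per gene, filled where the adjusted p was under 0.05, with the median of each list as a red line. The hypoxia genes lie furthest to the right, with a median of 1.10, whereas the medians of the other Tie and apelin pathway genes are 0.027 and 0.066.

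Genes of other cell types moved with genotype as well, and their part in the levels of the set was not tested. Over all genes tested, 8.93% rose and 5.67% fell. All 8 macrophage markers rose, with a median of 0.98 and a summed level of 197.9 to 256.7 CPM in KO hearts and 96.8 to 150.4 in WT hearts. Of 11 erythroid genes 5 rose and 1 fell, with a median of 0.24: *Klf1* rose by 4.10, *Gata1* by 3.45 and *Epb42* by 2.96, and the globin gene *Hbb-bt* fell by 1.43. Their summed level, mostly globin, was 5723 to 8936 CPM in KO hearts and 4525 to 16190 in WT hearts. Of 8 fibroblast genes *Postn* (0.42), *Tcf21* (0.30) and *Pdgfra* (0.27) rose, with a median of 0.19. Of 11 cardiomyocyte genes *Nppa*, the natriuretic peptide of the atria, rose by 0.87 and *Ttn* fell by 0.51, with a median of -0.075. DESeq2 called 4 of the 11 lower and 1 higher, where it called 2354 lower and 2791 higher of the 17013 genes to which it gave an adjusted p. None of 5 epicardial genes was called by edgeR (median 0.22). At an unadjusted p under 0.05 in edgeR 1 of the 5 was higher, beside 15.6% of all genes tested. DESeq2 called 1 of the 5 higher, beside 16.4% of its genes.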

How the data were processed

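RNA from 5 Pde2A-/- and 6 Pde2A+/+ whole hearts was sequenced from stranded single-end libraries. The authors aligned them to GRCm38 by STAR (version not given in the sources used here) and deposited whole-number counts per gene and strand, without normalization or filtering. A read on more than 1 gene is in no count. The column with the reads on the sense strand was used, and 4 lines that name no gene were left out. Of 55487 identifiers, 55141 matched GENCODE M21.

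The tests took every gene whose counts summed to 10 or more. Genotypes were compared with edgeR 4.0.16 in R 4.3.3 (TMM, quasi-likelihood test, Benjamini-Hochberg adjustment, threshold 0.05), without covariates. Log2 CPM used a prior count of 2. Ratios within hearts were compared by exact permutation. The tests set the difference between genotypes against the spread between hearts, which were taken as independent. That spread is wider than counting error (biological coefficient of variation 16.8%, a common value over all genes).

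The genes and lists were chosen with earlier results of these data known, and the lists were written by hand. Named are the 8 genes, up to 3 called genes per list and direction with the largest changes, 8 genes with a role next to the set, and the 3 genes most like a called gene among those with at least 1 CPM. The result of 1 gene of the PPAR list is not reported here, and the list's counts include it. Alternatives were DESeq2 1.42.0, its size factors, other filters, reads without strand, no globin genes, the naming style of replicates or Xist as a covariate, a prior count of 0.5, other endothelial references and each heart left out. Motifs and sequences were read with Python 3.11.15 and pandas 2.3.3, plots made with matplotlib 3.10.9.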

Additional observations from a re-analysis of the deposited data

How the results depend on the processing

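The fall of *Aplnr* kept its direction and passed in all 19 alternative fits, and relative to endothelial markers in all 14 alternatives (exact permutation p 0.0022 to 0.00794). These permutation p-values are the smallest that fully separated groups of each size can give. Leaving out a heart cannot make such groups overlap. The other alternatives take the same *Aplnr* counts with another endothelial reference or prior count. The 14 are therefore not separate support, and the 19 fits reuse the same hearts as well. Over all genes, leaving out a heart gave 1288 to 2887 genes higher (2160 with all hearts) and 414 to 2165 lower (1372), fewest without KO heart D and most without KO heart A, and DESeq2 gave 2354 lower. Genes of the set called higher numbered 2 with DESeq2 and 0 to 1 with a heart left out, the 1 being *Esm1* without KO heart A or WT heart 7. *Apln* was at -0.060 without KO heart 15, within a leave-out range of -0.060 to 0.26. Leaving out a heart gave ratios of 0.43 to 0.86 for *Angpt2* to *Angpt1*, 0.43 to 0.94 for *Apln* to *Aplnr*, -0.0051 to 0.036 for *Tie1* to *Tek* (negative without KO heart B) and -0.53 to -0.33 for *Angpt1* to *Tek*, whose unadjusted p rose above 0.05 in 8 of the 11. Relative to the median instead of the mean of the endothelium list, *Tek* was at -0.17, *Tie1* at -0.15 and *Angpt1* at -0.62 (exact permutation p = 0.0216). On that reference 2 genes were thus lower at an unadjusted p under 0.05. *Angpt1* is made mainly by other cells, so an endothelial reference does not follow the cells that express it. Relative to the mean of the list, leaving out a heart moved *Tek* between -0.020 and 0.062, *Apln* between -0.25 and 0.084 and *Angptl4* between -0.15 and 0.092, and gave 1 to 2 genes lower. The cause was not tested. Counting error limits *Esm1* most, with 60 to 232 counts per heart. No paired analysis was possible because the litter of each heart is not stated. The tests treated each heart as independent, and littermates could not be taken into account.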
